A study of Homo sapiens with 4 samples.

Results

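The 32 genes described here carry the cell's answer to unfolded protein and to shortage of amino acids. They were taken as a list of symbols and found on the arrays by the RefSeq accession of their probes, 32 of the 21611 genes named in this way. By role, 14 are ATF4 and its targets and regulators, 5 are enzymes of serine and one-carbon metabolism, and 13 are chaperones and degradation factors of the endoplasmic reticulum. Their RNA was measured in HCT116, a human colorectal carcinoma cell line. MG cells are its cells that crossed a transwell membrane in repeated selections and non-MG cells those that stayed behind, each collected and cultured as a population. Each subpopulation was exposed for 48 h to vehicle or to 5 µM of 5-azacytidine, a nucleoside that is built into DNA and RNA and inhibits DNA methyltransferases. The design asks how MG cells differ from non-MG cells and how each answers to the drug. The 4 conditions, non-MG cells with vehicle, non-MG cells with 5-azacytidine, MG cells with vehicle and MG cells with 5-azacytidine, have 1 one-colour Agilent array each. There are thus no replicates, and no test between conditions was made.

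Cells meet these stresses by a shared route. Kinases that sense unfolded protein (EIF2AK3), missing amino acids (EIF2AK4), missing heme (EIF2AK1) or double-stranded RNA (EIF2AK2) phosphorylate the initiation factor eIF2, which lowers protein synthesis in general and raises translation of the transcription factor ATF4. ATF4 is therefore controlled largely at translation, which RNA arrays do not measure. Unfolded protein in the endoplasmic reticulum is also sensed by ERN1, which splices the RNA of XBP1, and by ATF6, which is cut free from the membrane. Both pathways induce chaperones and degradation factors. In tumor cells these programs supply cystine, serine and folding capacity, and their pathways include genes that promote death under lasting stress.

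These pathways are read from short DNA elements near the start of their target genes. They are shown here because they are a feature of the genes that was not taken from the arrays, beside which the ratios can be set. The elements were searched on both strands in the 250 bases before the transcript start of each gene, in promoters from RefSeq on GRCh38.p14, which were given for 29 of the 32 genes and not for SHMT2, PSPH and SLC7A11. The C/EBP-ATF response element (CARE), bound by ATF4 with a C/EBP partner, was searched as TGATGNAA. It was found before 1061 of 27305 genes (3.89%) and before 3 of 13 genes of the ATF4 group with a promoter, ATF3, CHAC1 and ASNS. The endoplasmic reticulum stress element (ERSE), bound by ATF6 with NF-Y, was searched as CCAAT and CCACG parted by 9 bases of any kind and found before 25 genes (0.0916%), with HSPA5, HSP90B1, CALR, CRELD2, PDIA6 and XBP1 among the 13 genes of the endoplasmic reticulum group. Its variant ERSE-II, searched as ATTGG and CCACG parted by 1 base, was found before 18 genes (0.0659%), SDF2L1 and HERPUD1 among them. HERPUD1 also held a CARE, at positions -176 to -169 from its transcript start. These 3 patterns do not overlap in any window shown. A match is a run of letters and not a shown binding site, and other forms of these elements, or positions outside the window, were not searched. Of the 11 member genes with a match, 8 are shown as 80 bases of the gene's strand, 5′ to 3′, with the element in capitals. All windows lie before the annotated transcript start.

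The windows of ATF3 (chr1:212565180-212565259, + strand), CHAC1 (chr15:40953226-40953305, + strand) and ASNS (chr7:97872433-97872512, - strand) hold a CARE, which in CHAC1 reads on the opposite strand.
ATF3: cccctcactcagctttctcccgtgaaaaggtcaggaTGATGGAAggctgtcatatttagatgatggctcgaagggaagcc
CHAC1: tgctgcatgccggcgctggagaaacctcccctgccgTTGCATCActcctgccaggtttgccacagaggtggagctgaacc
ASNS: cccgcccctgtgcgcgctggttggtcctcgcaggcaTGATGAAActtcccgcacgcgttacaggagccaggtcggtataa

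The windows of HSPA5 (chr9:125241361-125241440, - strand), HSP90B1 (chr12:103930185-103930264, + strand) and XBP1 (chr22:28800573-28800652, - strand) hold an ERSE. Those of SDF2L1 (chr22:21642079-21642158, + strand) and HERPUD1 (chr16:56931990-56932069, + strand) hold an ERSE-II, which in SDF2L1 reads on the opposite strand.
HSPA5: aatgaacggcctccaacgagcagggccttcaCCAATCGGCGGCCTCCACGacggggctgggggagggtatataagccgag
HSP90B1: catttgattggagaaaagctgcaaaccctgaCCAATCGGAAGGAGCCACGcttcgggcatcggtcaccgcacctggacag
XBP1: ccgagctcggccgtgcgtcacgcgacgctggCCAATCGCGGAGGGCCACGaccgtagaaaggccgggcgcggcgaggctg
SDF2L1: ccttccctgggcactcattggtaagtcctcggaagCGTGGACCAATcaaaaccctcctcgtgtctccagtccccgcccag
HERPUD1: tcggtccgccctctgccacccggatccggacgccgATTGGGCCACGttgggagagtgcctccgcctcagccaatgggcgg

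**Figure D1:**
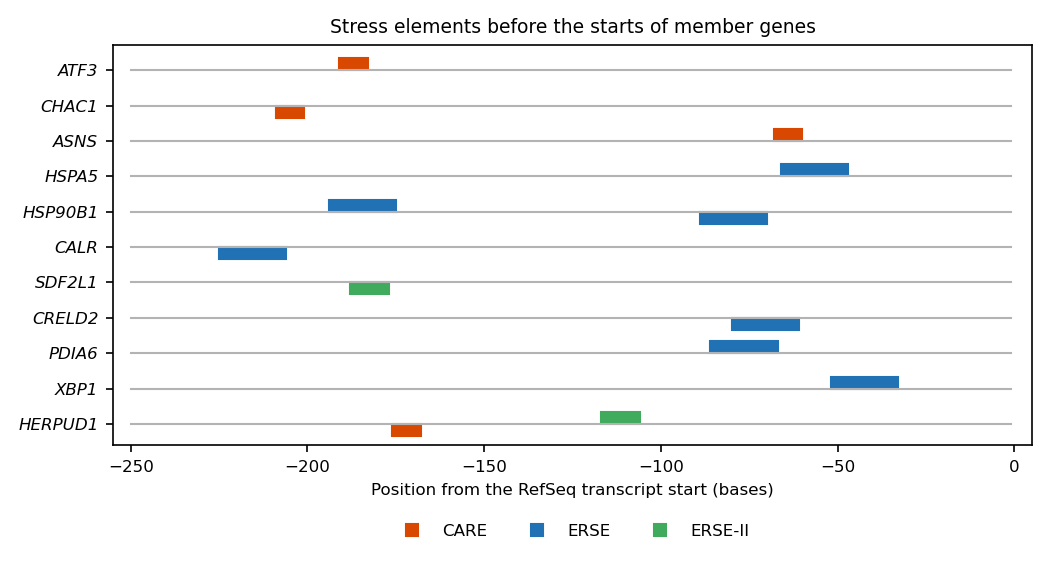
Position of each match in bases from the RefSeq transcript start for the 11 member genes that have one, with blocks above the line for matches on the gene's strand and below it for the opposite strand. CARE lies before ATF3, CHAC1, ASNS and HERPUD1, and ERSE or ERSE-II before the 8 genes of the endoplasmic reticulum group.

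A level is given as the log2 intensity of a probe minus the 75th percentile of log2 intensity on its array, and a ratio as the difference between the levels of 2 arrays, averaged over the retained probes of a gene. The MG/non-MG ratio thus compares the cell types and the ratio of 5-azacytidine over vehicle, or ratio to the drug, compares the treatments. The 32 genes have 41 probes, of which 38 passed the filter on dim signals, and 31 genes kept at least 1 probe. VLDLR, a lipoprotein receptor, has 2 probes that were well above background on no array and is given no ratio. All retained probes were well above background on every array for 29 genes, the exceptions being CHAC1 with 1 dim probe and EDEM1. With 22 of the 31 genes resting on 1 spot, error was taken from probes spotted 10 times on each array. This spot error is the SD between such spots at the same intensity, carried over to the ratio, and had a median of 0.07 and a range of 0.02 to 0.68 over the ratios of the members. It covers spotting and scanning only, not cultures or labelling.

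The 75th percentile of intensity was 75.2 to 98.7 on the 4 arrays, 21384 to 21882 of 50594 probes were well above background on each, and no spot was saturated. The precision of each ratio is limited by the number of arrays, 4. Non-MG cells lay in row 1 and MG cells in row 2 of the slide, with vehicle in column 3 and 5-azacytidine in column 4, so that cell type and treatment cannot be told apart from slide position. The 5 epithelial markers EPCAM, KRT8, KRT18, KRT19 and CDH1 were well above background on every array, with a summed level of 10.33 to 10.42. Of 9 fibroblast, immune and endothelial markers, COL1A1, CD14 and VWF were well above background on every array and 6 were on none, PTPRC, CD3E and PECAM1 among them, with a summed level of 0.52 to 1.11. Single markers moved more, with MG/non-MG ratios with vehicle and with 5-azacytidine of -0.66 and -0.49 for CDH1 and of -0.92 and -0.55 for COL1A1, while CD14 was higher past 1.5-fold with the drug in both cell types (0.87 in non-MG cells) and VWF in MG cells (0.70). Their part in the results was not tested. In RNA of whole cultures, fewer cells that express a gene and less of its RNA per cell cannot be told apart.

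With vehicle, 5 of the 31 retained members had MG/non-MG ratios past 1.5-fold upward (16.1%), compared with 8.24% of the 18919 genes and transcripts retained. They were CHAC1, SLC7A11, PSAT1, ATF5 and SLC3A2, which work in glutathione breakdown, cystine uptake, serine synthesis and stress transcription. SLC7A5 and EDEM1 were lower (6.45%), compared with 12.6% of all retained genes. With 5-azacytidine, on the other 2 arrays, the same 5 genes were higher, compared with 8.6% of all retained genes, and EDEM1 was lower, compared with 12.3%. Higher past 1.5-fold in both treatments were 5 of 31 members and 3.4% of all retained genes, and lower in both 1 member and 5.78%. Of the 29 members well above background on every array, 4 were higher and 1 was lower with vehicle, compared with 5.67% and 8.05% of the 15017 such genes, and 4 were higher and 0 lower with 5-azacytidine, compared with 5.73% and 7.13%. The median log2 ratio of the members was 0.09 with vehicle and 0.09 with 5-azacytidine, compared with -0.03 and -0.0060 over all retained genes. The MG/non-MG ratio was above 0 for 19 of the 31 members with vehicle and for 20 with 5-azacytidine. Of the 18919 genes and transcripts retained, it was above 0 for 8906 and 9360.

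The balance of higher and lower genes moved with the scaling. With median centring of each array, the median of all genes became 0.17 with vehicle and 0.25 with 5-azacytidine, and the members split into 10 higher and 2 lower with vehicle in place of 5 and 2. Over all retained genes the same change took the share higher from 8.24% to 15.8% and the share lower from 12.6% to 7.66%. The members added there were ASNS, PHGDH, MTHFD2, PDIA4 and SDF2L1. Directions below are relative to the 75th percentile.

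**Figure D2:**
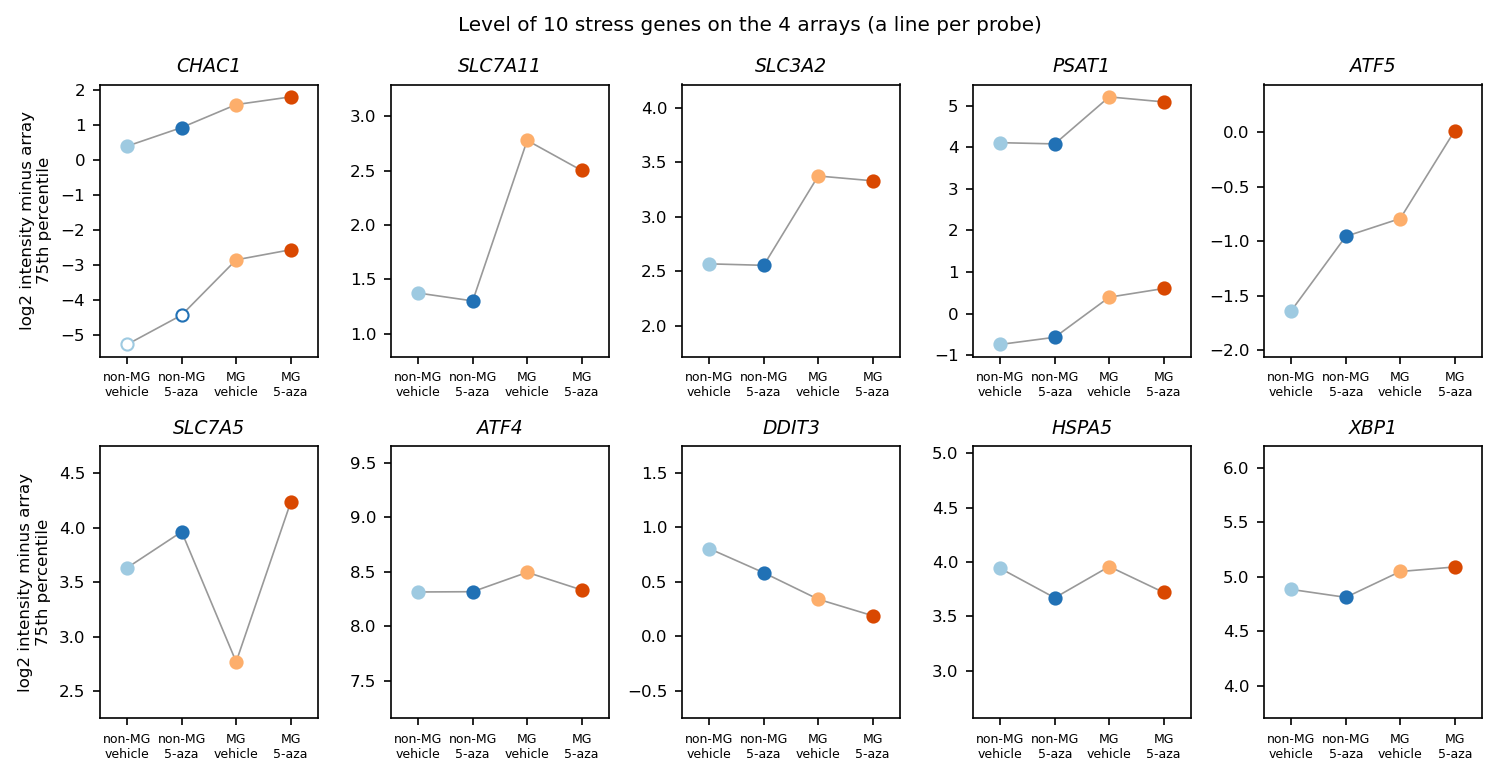
Level (log2 intensity minus the 75th percentile of the array) of 10 member genes on the 4 arrays, with 1 point per array and 1 line per probe, and open points for probes not well above background. Axes cover the same span except for CHAC1 and PSAT1, which have 2 probes each. SLC7A11, SLC3A2 and PSAT1 were high on both MG arrays, SLC7A5 was low in MG cells with vehicle alone, and ATF4, HSPA5 and XBP1 stayed within 1.5-fold on every pair of arrays compared.

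Among the transcription factors of the ATF4 group, ATF5 alone passed 1.5-fold. ATF4 itself had levels of 8.31 and 8.32 in non-MG cells with vehicle and with 5-azacytidine, and of 8.49 and 8.33 in MG cells. Its MG/non-MG ratio was 0.18 with vehicle and 0.02 with 5-azacytidine (spot error 0.07 for each). ATF5, a basic leucine zipper factor that is translated under eIF2 phosphorylation like ATF4, was measured by 10 spots, with levels of -1.64 and -0.96 in non-MG cells and of -0.79 and 0.02 in MG cells. The MG array was above the non-MG array with each treatment, and the array of treated non-MG cells was close to that of MG cells with vehicle. The ratio of ATF5 was 0.85 with vehicle (spot error 0.08, 1.80-fold) and 0.97 with 5-azacytidine (spot error 0.05, 1.96-fold). With normexp background correction and an offset of 50, which draws in the ratios of dim probes, it was 0.31 and 0.49 and no longer past 1.5-fold.

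DDIT3, the factor CHOP that promotes death under lasting stress, had levels of 0.81 and 0.58 in non-MG cells and of 0.34 and 0.19 in MG cells. Its ratios were -0.46 and -0.39 (spot error 0.11 for each), in the opposite direction to ATF5 and within 1.5-fold. The factors ATF3 and CEBPB, the latter a partner of ATF4 on the CARE, also had ratios below 0, from -0.43 to -0.20. With vehicle, the 4 ATF3 probes had ratios from -0.66 to -0.05, the last below its spot error of 0.24. TRIB3, a pseudokinase that restrains ATF4, had ratios of 0.39 and 0.10, and PPP1R15A, the phosphatase subunit that reverses eIF2 phosphorylation, ratios of -0.21 and 0.04. Of DDIT3, TRIB3 and PPP1R15A, the death and feedback genes of the pathway, none passed 1.5-fold in either comparison of the cell types.

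CHAC1 encodes an enzyme that breaks down glutathione. Its brighter probe had levels of 0.40 and 0.94 in non-MG cells and of 1.59 and 1.82 in MG cells. The ratio of this probe was 1.19 with vehicle and 0.88 with 5-azacytidine (spot error 0.10 for each). The dimmer probe was well above background on both MG arrays and on neither non-MG array, with levels of -5.28, -4.44, -2.85 and -2.56 in the order of the 4 conditions above. MG cells were thus at least 1.20-fold higher for it with vehicle and at least 1.28-fold with 5-azacytidine. For each bound, the brighter signal was divided by the dimmer array's lowest intensity of any probe well above background, or by the dim signal itself if larger. The mean ratio of both probes, 1.81 with vehicle and 1.37 with 5-azacytidine, therefore rests in part on signals near background. It was the highest mean of the members, but the brighter probe alone lay below SLC7A11 in both treatments and below PSAT1 and ATF5 with 5-azacytidine. With normexp correction the mean was 0.55 and 0.52, under 1.5-fold. Of the genes shown with a CARE, CHAC1 alone passed 1.5-fold, while ASNS, which makes asparagine, had ratios of 0.48 and 0.15.

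The transporters of the group went different ways. SLC7A11 exchanges glutamate for cystine, the source of cysteine for glutathione. Its levels were 1.38 and 1.30 in non-MG cells and 2.78 and 2.50 in MG cells, higher in MG cells with each treatment. MG cells were 2.64-fold higher with vehicle and 2.29-fold higher with 5-azacytidine, with a spot error of 0.10 on the log2 scale for each. SLC3A2 encodes the heavy chain that brings SLC7A11 and SLC7A5 to the cell surface. Its levels were 2.57 and 2.56 in non-MG cells and 3.38 and 3.33 in MG cells, again higher in MG cells with each treatment. The ratio of SLC3A2 was 0.81 with vehicle (spot error 0.08, 1.75-fold) and 0.78 with 5-azacytidine (spot error 0.09, 1.71-fold). Both ratios passed 1.5-fold in the 8 alternative settings with that threshold, as did those of SLC7A11 and PSAT1. Part of this count was fixed beforehand. For SLC3A2 and SLC7A11, with 1 probe each, the settings that select probes or raise dim signals return the same value. For PSAT1, among these, the brightest probe alone could change it. The authors' log2 table shifted the ratios of the members recomputed singly by nearly the same small amount, and SLC3A2 stayed at 0.81 and 0.78. Median centring raised every MG/non-MG ratio of a comparison by the same amount, so it could not undo a higher call. Normexp and quantile normalization could move the ratios either way. The lowest of SLC3A2 were 0.78 with vehicle and 0.70 with 5-azacytidine, with quantile normalization.

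SLC7A5, the other partner of SLC3A2, takes up leucine and other large neutral amino acids. Its levels were 3.63 and 3.96 in non-MG cells, 2.77 in MG cells with vehicle and 4.23 in MG cells with 5-azacytidine. The array of MG cells with vehicle stood below the other 3, and that of treated MG cells was the highest. The MG/non-MG ratio was -0.86 with vehicle (spot error 0.08, 1.82-fold lower) and 0.27 with 5-azacytidine (spot error 0.07). SLC7A5 has 1 probe with 1 spot on each array, and the change of sign between the treatments was not tested. STC2, a secreted glycoprotein induced under stress, had ratios of -0.20 and -0.47, with a spot error of 0.28 for each.

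Of the serine and one-carbon enzymes, PSAT1 was higher in MG cells. PHGDH, PSAT1 and PSPH make serine from a glycolytic intermediate in successive steps, and SHMT2 and MTHFD2 pass its carbon to folate in mitochondria. The brighter PSAT1 probe had levels of 4.12 and 4.09 in non-MG cells and of 5.22 and 5.10 in MG cells. The dimmer probe had levels of -0.75 and -0.57 in non-MG cells and of 0.39 and 0.60 in MG cells. On both probes the MG array stood above the non-MG array with each treatment. The mean ratio was 1.12 with vehicle (2.17-fold) and 1.09 with 5-azacytidine (2.13-fold), with a spot error of 0.08 for each. MTHFD2, measured by 10 spots, had ratios of 0.54 (spot error 0.02, 1.45-fold) and 0.46 and lay just under 1.5-fold with vehicle. With normexp correction they were 0.60 and 0.66, past 1.5-fold. The ratio of PHGDH was 0.42 with vehicle and 0.15 with 5-azacytidine, while PSPH and SHMT2 had ratios of -0.09 to -0.0075. The median of the 5 enzymes was 0.42 with vehicle and 0.15 with 5-azacytidine.

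In the endoplasmic reticulum group, 12 of 13 genes lay within 1.5-fold in both comparisons of MG and non-MG cells. Of all 18919 retained genes, 14974 lay within 1.5-fold with vehicle and 14972 with 5-azacytidine. Among the 15017 genes well above background on every array, it was 12957 and 13086. The share of all genes within 1.5-fold in both was not computed. HSPA5, the chaperone BiP that holds the stress sensors inactive, had levels of 3.94 and 3.67 in non-MG cells and of 3.96 and 3.72 in MG cells. Its ratios were 0.02 and 0.05, below their spot errors of 0.07 and 0.08. XBP1, measured by 9 spots, had levels of 4.89 and 4.81 in non-MG cells and of 5.05 and 5.09 in MG cells, with ratios of 0.16 and 0.28 (spot error 0.03 for each). The probe gives the level of XBP1 RNA, and whether it parts the spliced form from the unspliced form was not determined.

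The chaperones and enzymes of folding lay within 1.5-fold, at different ratios. HSP90B1 and CALR, chaperones of the lumen, had ratios of -0.05 to 0.12. PDIA4, a protein disulfide isomerase, had ratios of 0.45 and 0.43, and its relative PDIA6 ratios of -0.08 and -0.08. SDF2L1, part of a chaperone complex of the lumen, reached 0.41 and 0.43, and CRELD2 0.26 and 0.32. The cochaperones DNAJB9 and DNAJC3 lay from -0.12 to 0.08, the degradation factors HERPUD1 and SEL1L from -0.10 to 0.09. The 8 genes with an ERSE or ERSE-II had ratios from -0.08 to 0.41 with vehicle and from -0.10 to 0.43 with 5-azacytidine. Of these 8, 0 passed 1.5-fold in either direction, beside the counts of all genes within 1.5-fold given above. EDEM1, a lectin-like factor that sends misfolded glycoproteins to degradation, was the exception in the endoplasmic reticulum group. It was well above background on both non-MG arrays, at levels of -2.33 and -1.85, and on neither MG array, a level at least 1.71-fold lower in MG cells with vehicle and at least 2.27-fold lower with 5-azacytidine. With normexp correction its ratios were -0.26 and -0.35, under 1.5-fold.

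**Figure D3:**
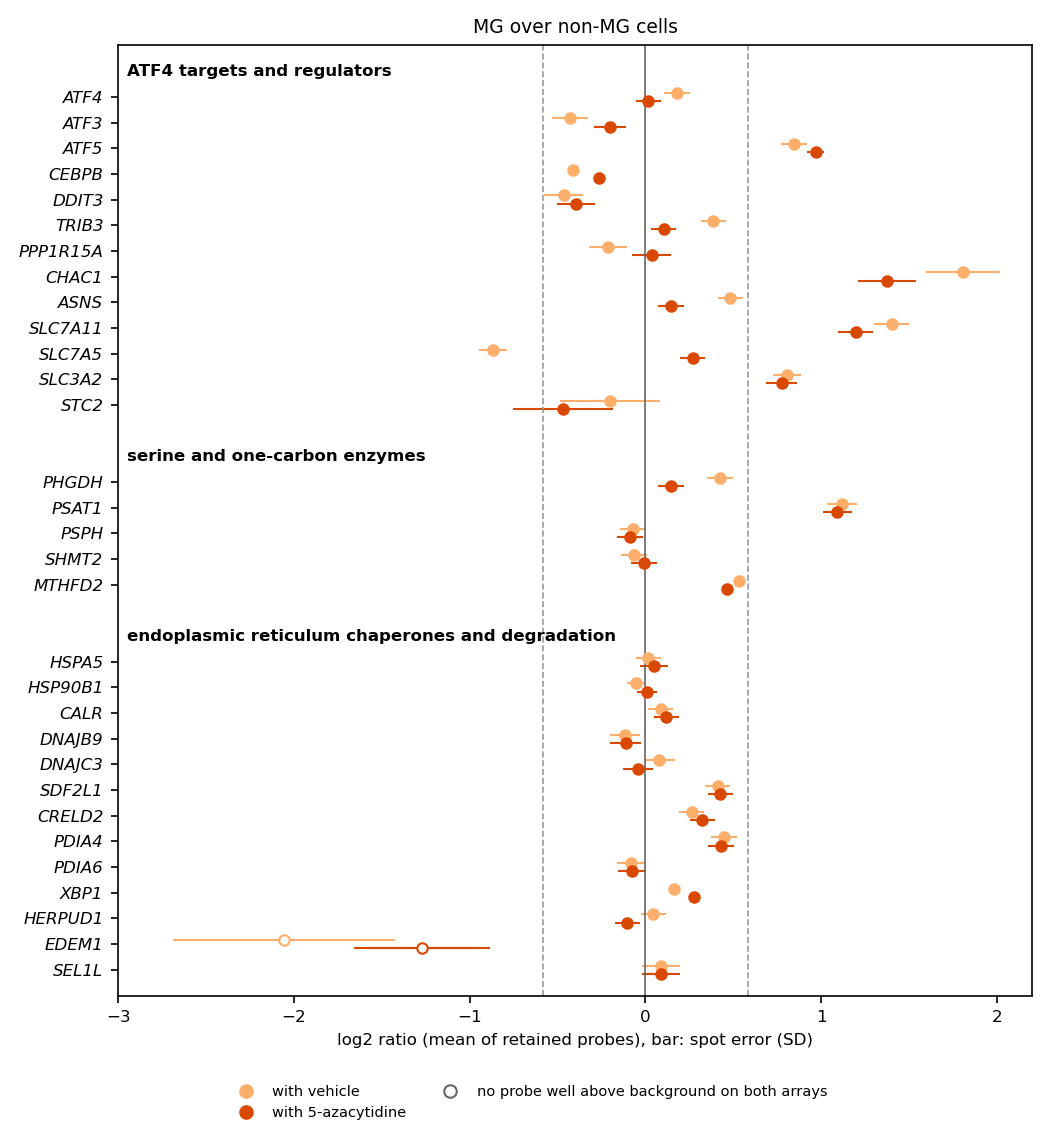
Log2 MG/non-MG ratio for the 31 retained members with vehicle and with 5-azacytidine, with bars of 1 spot error (SD) to each side, open points where no probe was well above background on both arrays, and dashed lines at 1.5-fold. CHAC1, SLC7A11, PSAT1, ATF5 and SLC3A2 lie beyond the upper line in both treatments, SLC7A5 beyond the lower line with vehicle alone, and the endoplasmic reticulum group lies within 1.5-fold except EDEM1, with PDIA4 and SDF2L1 between 0.41 and 0.45.

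The comparisons of 5-azacytidine with vehicle use the same 4 arrays again, each sharing 1 array with each comparison above, so the values are given side by side with no relation drawn between them. After 5-azacytidine, 2 of 31 members were higher in non-MG cells, ATF5 and CHAC1, compared with 6.01% of all retained genes, and 0 were lower, compared with 4.58%. In MG cells, 3 members passed 1.5-fold upward, compared with 7.62% of all retained genes, and 0 downward, compared with 6.37%. ATF5 and SLC7A5 were higher, while EDEM1 passed between signals that were well above background on neither array and did not pass with signals raised to the floor. Higher in both cell types was ATF5, 1 of 31 members, compared with 2.88% of all retained genes, and lower in both were 0 members, compared with 1.16%. Of the 29 members well above background on every array, 1 was higher and 0 lower in non-MG cells, compared with 1.85% and 1.63% of such genes, and 2 were higher and 0 lower in MG cells, compared with 2.95% and 2.09%. The median log2 ratio of the members was 0.0026 in non-MG cells and -0.02 in MG cells, compared with -0.04 and -0.02 over all retained genes.

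SLC7A5 had the largest ratio of the members to the drug. From the levels given above, its ratio of 5-azacytidine over vehicle was 1.46 in MG cells (spot error 0.08, 2.76-fold) and 0.33 in non-MG cells (spot error 0.07). The response in MG cells was larger by 1.13 (spot error 0.11), a difference that was not tested. Its partner SLC3A2 had ratios of -0.04 in MG cells and -0.01 in non-MG cells. SLC7A11, the other light chain, had ratios of -0.28 and -0.07.

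ATF5 rose past 1.5-fold with the drug in both cell types, by 0.68 in non-MG cells (spot error 0.08, 1.60-fold) and by 0.81 in MG cells (spot error 0.05, 1.75-fold). With normexp correction these values were 0.28 and 0.46, and with centring on the median the value in non-MG cells also fell under 1.5-fold. CHAC1 had a mean ratio of 0.69 in non-MG cells, where its dimmer probe was well above background on neither array, and the brighter probe alone had a ratio of 0.53 (spot error 0.11), under 1.5-fold. In MG cells the mean ratio of CHAC1 was 0.26. For EDEM1 no fold is given in MG cells, since its probe was not well above background on either array.

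ATF4 had a ratio of 0.0026 to the drug in non-MG cells and of -0.16 in MG cells. The ratios of DDIT3 were -0.22 and -0.15, and those of PPP1R15A -0.38 and -0.13. ASNS had ratios of -0.04 in non-MG cells and -0.38 in MG cells, PHGDH of -0.13 and -0.40, and TRIB3 of 0.06 and -0.22. In MG cells all 3 of these ratios were below 0 and within 1.5-fold. PSAT1 and MTHFD2 lay from -0.04 to 0.07 in both cell types. HSPA5 had ratios of -0.27 and -0.24 and CALR of 0.22 and 0.25, each differing between the cell types by less than the spot error. The 8 genes with an ERSE or ERSE-II ranged from -0.27 to 0.22 in non-MG cells and from -0.24 to 0.25 in MG cells, with 0 past 1.5-fold. Across all 4 comparisons, 24 of the 31 members (77.4%) stayed within 1.5-fold, 8 of 13 in the ATF4 group, 4 of 5 among the serine and one-carbon enzymes and 12 of 13 in the endoplasmic reticulum group, compared with 64.5% of all retained genes. Among genes well above background on every array, it was 24 of 29 members (82.8%) and 76.8% of 15017 genes.

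**Figure D4:**
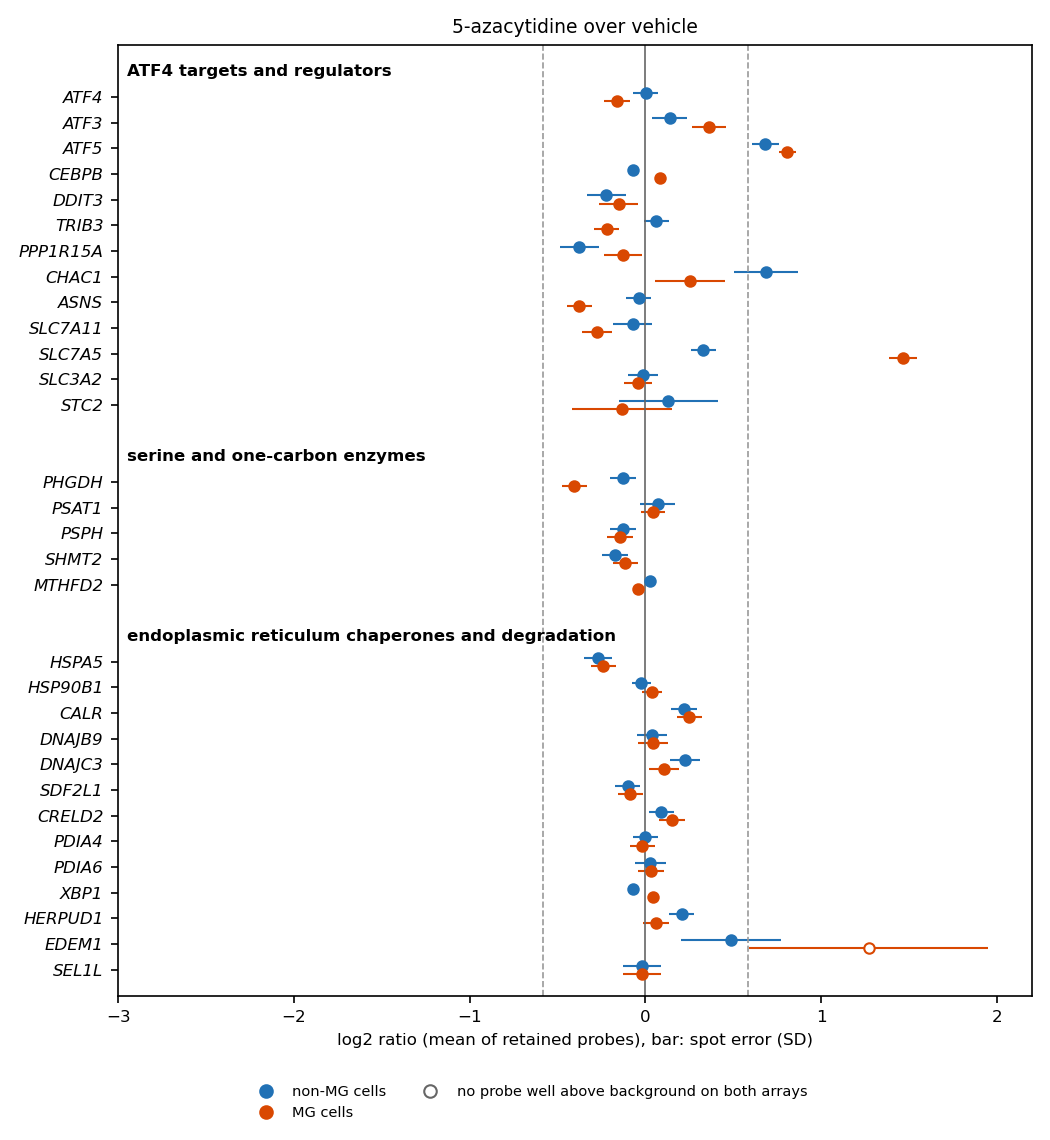
Log2 ratio of 5-azacytidine over vehicle for the 31 retained members in non-MG and in MG cells, drawn as in the plot of MG over non-MG cells, with bars of 1 spot error (SD) and dashed lines at 1.5-fold. SLC7A5 in MG cells stands at 1.46 and in non-MG cells at 0.33, ATF5 lies beyond the upper line in both, and no member lies beyond the lower line.

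The other genes of these pathways were read from 6 further lists. The stress sensors and eIF2 subunits had 15 of 16 genes retained, since ERN1 was well above background on no array. EIF2AK3 had MG/non-MG ratios of 0.05 and 0.19, below their spot error of 0.39 for each. It rests on 1 spot with intensities of 12.8 to 18.8, near background, which limits its ratios. EIF2AK4 had ratios of 0.14 and 0.45, and both genes lay within 1.5-fold in the 4 comparisons. Of the 15, 1 was higher and 0 lower with vehicle, beside 8.24% and 12.6% of all retained genes. With 5-azacytidine 1 was higher and 1 lower, beside 8.6% and 12.3%. EIF2S1, the phosphorylated subunit of eIF2, had ratios of 0.60 with vehicle and 0.32 with 5-azacytidine (spot error 0.10 for each). EIF2B1, a subunit of its exchange factor, had ratios of 0.51 and 0.62 (spot error 0.03 for each). The larger ratio of each lay just past 1.5-fold, and the difference between treatments was not tested. ATF6 had ratios of -0.06 and 0.05. Its relative ATF6B was lower in MG cells with 5-azacytidine (-0.63, spot error 0.11) and higher after the drug in non-MG cells (0.82, spot error 0.15). Both ratios use the array of treated non-MG cells, where its single spot had a level of 0.36, beside -0.57 to -0.27 on the others. After the drug, 1 of the 15 was higher in non-MG cells and 0 in MG cells, beside 6.01% and 7.62% of all retained genes. In both cell types 0 were lower, beside 4.58% and 6.37%.

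Of 24 further ATF4 targets, 20 were retained. With vehicle, 6 were higher and 2 lower in MG cells past 1.5-fold, and with 5-azacytidine 3 and 2, beside the shares of all retained genes given above (8.24% higher and 12.6% lower with vehicle, 8.6% and 12.3% with 5-azacytidine). After the drug, 3 were higher and 1 was lower in each cell type, beside 6.01% and 4.58% in non-MG cells and 7.62% and 6.37% in MG cells. NUPR1, a small chromatin protein of the stress response, had levels of -2.60 and -1.57 in non-MG cells and of -0.96 and 0.64 in MG cells. The MG arrays were the higher for each treatment and the treated arrays for each cell type, as for ATF5. NUPR1 rests on 1 spot, with an intensity of 14.3 in non-MG cells with vehicle, near background. Its ratios were not recomputed in the other settings. Its MG/non-MG ratios were 1.64 with vehicle (spot error 0.36) and 2.21 with 5-azacytidine (spot error 0.22), and those of 5-azacytidine over vehicle were 1.03 in non-MG cells (spot error 0.39) and 1.60 in MG cells (spot error 0.15). JDP2, a leucine zipper repressor, had ratios of 0.95 and 1.14 between the cell types. DDIT4, an inhibitor of mTORC1, was lower in MG cells by ratios of -1.36 and -0.96, and KLHL24 by -0.70 and -0.86. The median of this list was 0.11 with vehicle and 0.19 with 5-azacytidine.

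The 13 cytosolic aminoacyl-tRNA synthetases, which load amino acids on tRNA, had a median MG/non-MG ratio of 0.52 with vehicle, with 12 of 13 above 0, beside 8906 of 18919 genes retained. Past 1.5-fold, 3 were higher and 0 lower, again beside 8.24% and 12.6%. With 5-azacytidine the median was 0.24, again with 12 above 0, beside 9360 of 18919 genes retained. Past 1.5-fold were 0, beside 8.6% higher and 12.3% lower. After 5-azacytidine, 0 of the 13 passed 1.5-fold in either cell type. Of 13 further one-carbon genes, 1 was higher and 2 were lower with vehicle and 0 higher and 4 lower with 5-azacytidine, to be read beside the same shares, with ALDH1L1 (-0.99 and -0.63), a folate enzyme of the cytosol, among those lower in each. Of 31 further genes of folding and degradation in the endoplasmic reticulum, 0 were higher and 3 lower with vehicle, beside 8.24% and 12.6% of all retained genes. With 5-azacytidine 1 was higher and 1 lower, beside 8.6% and 12.3%. In all 4 comparisons, 26 of the 31 stayed within 1.5-fold, beside 64.5% of all retained genes. The 12 heat shock genes of cytosol and mitochondria, which answer to unfolded protein outside the endoplasmic reticulum, had medians of 0.29 and 0.36, beside -0.03 and -0.0060 over all retained genes. Past 1.5-fold, 2 were higher and 0 lower with vehicle, beside 8.24% and 12.6% of all retained genes. With 5-azacytidine 4 were higher and 0 lower, beside 8.6% and 12.3%. These include HSPA1A, not well above background in non-MG cells, and DNAJA1, with a single dim spot there. HSPA8 (0.73 and 0.73) and HSPH1 (0.96 and 0.89), cytosolic chaperones, were higher in MG cells in both treatments, 2 of 12 beside 3.4% of all retained genes.

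**Figure D5:**
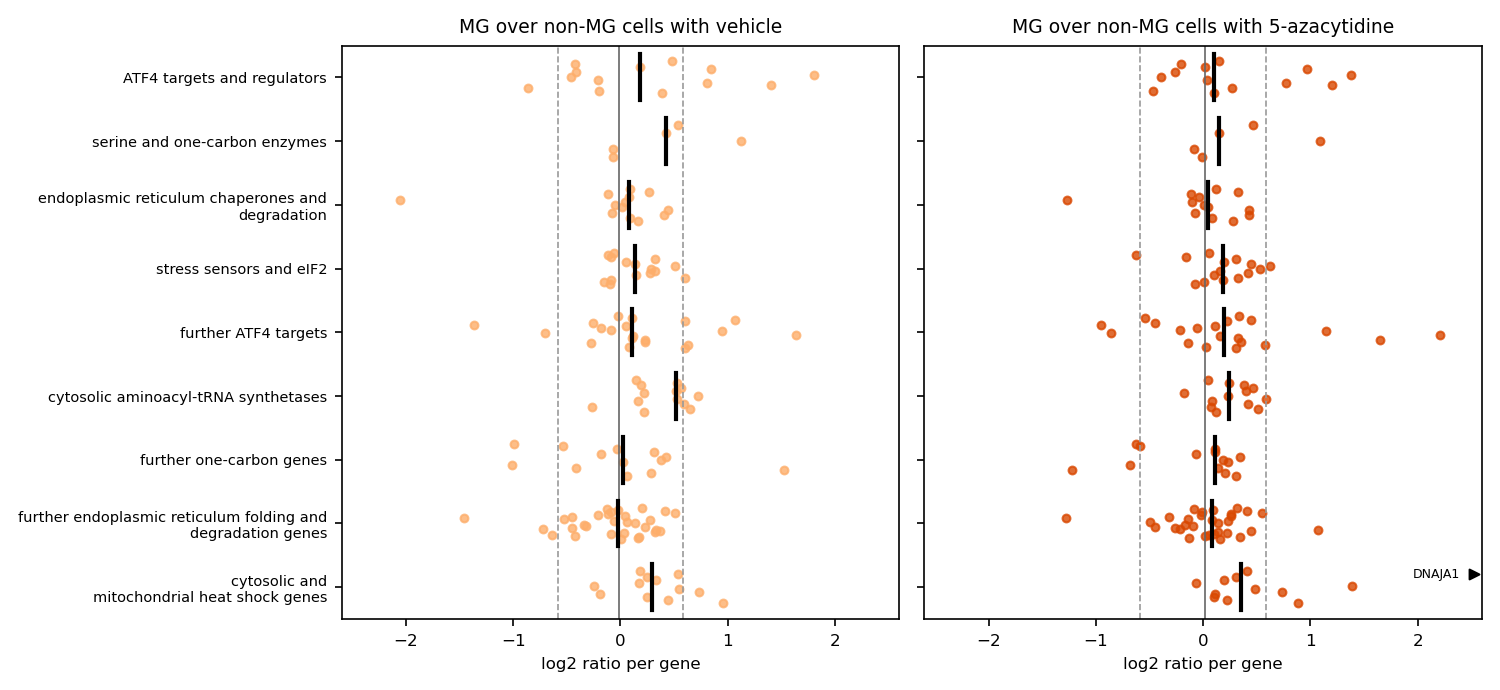
Log2 MG/non-MG ratio for each retained gene of the 3 member groups and the 6 further lists, with vehicle on the left and with 5-azacytidine on the right, a black bar at the median of each list and dashed lines at 1.5-fold. The median of the tRNA synthetases is 0.52 with vehicle and that of the endoplasmic reticulum members is 0.08. DNAJA1, marked by an arrow, lies beyond the axis at 7.20.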

How the data were processed

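RNA of 4 samples, 1 per condition, was labelled (400 ng) and hybridized to 4 one-colour Agilent arrays on 1 slide. RNA was made with RNAiso Plus per the labels and with an RNeasy kit per the methods. The authors deposited Feature Extraction 11.5.1.1 output with background-corrected linear intensity per spot, and a table of log2 values centred on the median of each probe over the 4 arrays.

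Control and outlier spots were left out, the 75th percentile of log2 intensity over non-control probes was subtracted, and spots were averaged. Probes were left out if well above background on no array or among the lowest 20% on at least 2, which kept 23860 of 50594 probes (79.4% named through RefSeq accessions, GRCh38.p14, for 14318 named genes). Probes have no coordinates here, since the array was designed on an older build. Retained probes were averaged per gene, and 1.5-fold (0.585 on the log2 scale), the smallest change the study tabulates, was the threshold. Counting was tested on simulated data.

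The members, lists and alternatives were chosen with earlier results of these data known. Any member could be named. Values on all 4 arrays were given for members past 1.5-fold with a probe well above background on both arrays compared, and for ATF4, DDIT3, HSPA5 and XBP1. Other genes were named where they passed in both comparisons of 1 kind with every retained probe well above background throughout, with any of the stress sensors. CBS, HSPA1A, SEC61A1 and DNAJA1 were named after their values were seen, and 1 further gene that met the rule is not reported here.

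Alternatives were normexp (offset 50, on median spot intensity, since the files used hold no mean), quantile normalization, median centring, no filter, signals raised to a floor at the lowest intensity well above background (9.95 to 11.8), probes well above background on every array, the brightest probe, the authors' log2 table, and thresholds of 2-fold and 1.4-fold. With 1 slide there is no slide block. Python 3.11.15, numpy 2.4.6, pandas 2.3.3, matplotlib 3.10.9, R 4.3.3 and limma 3.58.1 were used.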

Additional observations from a re-analysis of the deposited data

Results flagged for a closer look

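For 2 members the ratio had opposite signs in the conditions compared, each beyond 2 spot errors, and neither difference was tested. SLC7A5 had a log2 MG/non-MG ratio of -0.86 with vehicle and of 0.27 with 5-azacytidine. CEBPB had a log2 ratio of 5-azacytidine over vehicle of -0.07 in non-MG cells and of 0.08 in MG cells, both within 1.5-fold.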

How the results depend on the processing

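Of 348 recomputed ratios of single members, 273 moved by less than a spot error, 75 by more, and 0 changed sign after a call. The 273 include ratios that could not move. For a gene with 1 probe, well above background on every array, the settings on filter, floor and brightest probe return the same value. The authors' log2 table shifted the MG/non-MG ratios of these members by nearly the same amount, smaller than any spot error. With vehicle, the 5 members higher in MG cells became 10 with median centring and 3 at 2-fold, and the 2 lower became 1 with normexp, with probes well above background on every array and at 2-fold. With 5-azacytidine, the 5 higher became 8 with median centring and 3 at 2-fold, and the 1 lower became 0 with normexp and with probes well above background on every array, and 2 with no filter. The median of 0.09 became 0.19 with normexp and 0.28 with median centring with vehicle, and 0.19 and 0.34 with 5-azacytidine. For 5-azacytidine over vehicle in non-MG cells, the 2 higher became 0 with normexp and at 2-fold, and 1 with quantile normalization, median centring, signals raised to the floor, probes well above background on every array and the brightest probe, and the median of 0.0026 became -0.10 with normexp and with median centring. In MG cells, the 3 higher, EDEM1 with its signals near background included, became 1 with normexp, and 2 with signals raised to the floor and with probes well above background on every array. The shares of all genes moved as well. Higher with vehicle were 8.24% in the setting used, 15.8% with median centring, 2.58% with normexp and 2.92% at 2-fold, and higher with 5-azacytidine 8.6%, 20.9%, 3.98% and 3.23%. The cause of each move was not tested beyond what the setting itself removes. Dim members (CHAC1, EDEM1, ATF5, STC2) are limited by signal over background. No paired analysis was possible because the groups share fewer than 2 replicate numbers, with 1 array per condition. A fit of cell type plus treatment, whose only error would be the difference in response between the cell types, was not run, and no array could be left out without losing a condition.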

Other observations

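CBS, which joins homocysteine to serine on the way to cysteine, stood out among the further ATF4 targets for its ratio to the drug. Its levels were -3.32 and 0.01 in non-MG cells with vehicle and with 5-azacytidine, and -2.25 and 0.46 in MG cells. Its signal was not well above background on the first of these arrays, so that CBS was at least 8.74-fold higher after 5-azacytidine in non-MG cells. In MG cells its log2 ratio was 2.71 (spot error 0.22). With vehicle, CBS was at least 1.82-fold higher in MG cells than in non-MG cells.

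HSPA1A, an inducible heat shock chaperone, was well above background in MG cells with 5-azacytidine and not in those with vehicle, a level at least 2.82-fold higher with the drug. SEC61A1, the channel through which proteins enter the endoplasmic reticulum, had levels of 1.85, 1.89 and 2.18 on the other arrays and of 2.96 in MG cells with 5-azacytidine. The single DNAJA1 spot had an intensity of 18.7 in non-MG cells with 5-azacytidine and of 1663 to 3521 on the other 3 arrays.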
